A study of Mus musculus with 15 samples.

Results

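The genes described here are the matrix metalloproteinases *Mmp2*, *Mmp3*, *Mmp9*, *Mmp11*, *Mmp12*, *Mmp13* and *Mmp14* and the tissue inhibitors of metalloproteinases *Timp1*, *Timp2* and *Timp3*. They were chosen by name, with earlier results of these data known, and all 10 were found among the 18279 genes of the table. RNA was sequenced from 15 tumors of Renca, a mouse renal carcinoma line, grown under the skin of female BALB/c mice that were 4 to 6 weeks old when bought, after injection in Matrigel. Control tumors (tumors 1 to 5) were compared with tumors of *Pbrm1* KO clone 4 (tumors 6 to 10) and of *Pbrm1* KO clone 18 (tumors 11 to 15). The sample labels call the control cells parental Renca cells, whereas the methods of the study name control knockout cells. The knockout lines were made with a plasmid that expressed *Cas9* only transiently, and each is 1 clone, so the tumors replicate the growth of a line and not the making of a knockout, and loss of *Pbrm1* and other differences between lines cannot be told apart. Mice were left untreated or received an antibody against PD-1, and the labels do not say which was done for these tumors. The comparisons ask whether transcripts of the enzymes that degrade the extracellular matrix, and of their inhibitors, differed between tumors with and without *Pbrm1*, and between the clones.

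Matrix metalloproteinases are zinc-dependent enzymes that are made as inactive proenzymes and, once cleaved, degrade collagens, gelatin, laminin, fibronectin, elastin and proteoglycans, and also cut cytokines, receptors and other secreted proteins. TIMPs bind the active site of the enzymes and block them, and TIMP2 also links pro-MMP2 to the membrane enzyme MMP14, which starts its activation. In tumors these transcripts come from cancer cells, fibroblasts, macrophages, neutrophils and endothelial cells, and a value from whole tumor RNA cannot say which, nor can fewer cells of a type and less RNA per cell be told apart.

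Per library, 32924414 to 49099168 reads fell on genes (median 40860659). Values are normalized counts, that is, reads per gene divided by a size factor per tumor. *Pbrm1* itself was 7451.5 to 9870.6 in control tumors, 2483.8 to 3067.8 in clone 4 and 2572.1 to 3137.5 in clone 18, without overlap between knockout and control. Renal epithelial markers, 10 of 10 measured, summed to 98548.6 to 138566.6 in all tumors, while the 3 keratinocyte markers found among the 8 listed were near 0, with a median sum of 6.7 for control, 1.9 for clone 4 and 3.4 for clone 18 tumors. The skeletal muscle markers, 8 of 8 measured, summed to 93.5 to 260.0 in the control, 75.3 to 1262.0 in clone 4 and 111.9 to 2028.7 in clone 18.

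Of the members, 3 lie in the metalloproteinase gene cluster on chromosome 9 of GRCm38, in which 10 family genes span 427.1 kb from 7272514 to 7699585. In order along the chromosome, the measured genes of the cluster were *Mmp13*, *Mmp12*, *Mmp3*, *Mmp10*, *Mmp8* and *Mmp27*. The promoter windows of *Mmp13*, *Mmp12* and *Mmp3*, and of their neighbor *Mmp10*, are shown because *Mmp10* and *Mmp12* were higher in the knockout tumors, *Mmp3* and *Mmp13* did not pass the test, and each window holds the heptamer TGANTCA, the letters that AP-1 factors are known to bind. Each window holds 230 bases upstream of a RefSeq transcription start on the plus strand of GRCm38.p6, without the last 20 bases before that start, and for *Mmp12* the downstream of its RefSeq starts is shown, where the heptamer lies. Capitals mark TGANTCA and the hexamer AGGAAG or its reverse complement CTTCCT, the letters of PEA3-type ETS factors.
Mmp13, chr9:7272264-7272493: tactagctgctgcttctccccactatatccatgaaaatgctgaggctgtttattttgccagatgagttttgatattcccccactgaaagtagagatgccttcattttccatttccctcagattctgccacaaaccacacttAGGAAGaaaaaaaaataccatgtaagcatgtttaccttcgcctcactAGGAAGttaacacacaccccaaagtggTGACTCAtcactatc
Mmp12, chr9:7347124-7347353: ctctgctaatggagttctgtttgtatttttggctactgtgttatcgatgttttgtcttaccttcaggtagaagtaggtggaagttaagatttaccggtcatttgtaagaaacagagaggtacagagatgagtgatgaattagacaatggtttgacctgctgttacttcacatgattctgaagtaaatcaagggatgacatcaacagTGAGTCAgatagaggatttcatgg
Mmp3, chr9:7445572-7445801: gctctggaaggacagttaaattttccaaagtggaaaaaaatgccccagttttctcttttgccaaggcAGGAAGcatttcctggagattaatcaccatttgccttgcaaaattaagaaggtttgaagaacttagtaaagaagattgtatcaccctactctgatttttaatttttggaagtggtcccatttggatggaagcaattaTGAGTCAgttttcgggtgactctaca
Mmp10, chr9:7502092-7502321: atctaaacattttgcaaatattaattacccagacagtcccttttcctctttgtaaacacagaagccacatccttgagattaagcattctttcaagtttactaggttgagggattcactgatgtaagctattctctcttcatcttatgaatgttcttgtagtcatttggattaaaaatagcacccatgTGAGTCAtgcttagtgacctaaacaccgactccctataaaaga

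Counted from the transcription start, the heptamer begins at base -35 in *Mmp13*, -44 in *Mmp12*, -46 in *Mmp3* and -63 in *Mmp10*. A promoter sequence, 250 bases before to 50 bases after a start, was found for 8 of the 10 members. Searched on both strands, TGANTCA was present for 3 of these 8 (*Mmp3*, *Mmp12*, *Mmp13*) and in 7.8% of all 32851 promoters of the same length. The hexamer AGGAAG was present for 6 (35.4% of all promoters), TATAAA for 3 (13.6%) and the GC box GGGCGG for 5 (35.7%). The members with a GC box were *Mmp11*, *Mmp14*, *Timp1*, *Timp2* and *Timp3*, so no member had both TGANTCA and a GC box in these windows. Of the cluster's other genes, *Mmp8* and *Mmp27* had no TGANTCA, and *Mmp1a*, *Mmp1b*, *Mmp7* and *Mmp20*, which were not measured, had it. The window of the upstream RefSeq start of *Mmp12* had none. A match describes letters and does not show that a factor binds there.

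Of the gelatinase genes, *Mmp2* was lower in the knockout tumors, and *Mmp9* did not pass the threshold in limma. *Mmp2* (chromosome 8, 92827291 to 92853420) encodes gelatinase A, an enzyme made mainly by fibroblasts and other mesenchymal cells that degrades denatured collagen and basement membrane collagen. Its normalized count was 3262.2, 8184.8, 4396.4, 4139.2 and 4450.3 in control tumors 1 to 5, 960.5, 2049.7, 2587.2, 1757.9 and 4068.2 in clone 4 tumors 6 to 10, and 2879.8, 4318.7, 3517.2, 2569.0 and 3257.8 in clone 18 tumors 11 to 15. Control tumor 2 stood well above the others, tumor 6 was the lowest of all, and the groups overlapped, with 7 of the 10 knockout tumors below each control tumor. With 5 tumors each, the mean and SD were 4887 ± 1904 for the control, 2285 ± 1157 for clone 4 and 3308 ± 670 for clone 18.

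Differences were tested with limma on log2(normalized count + 1), a scale that understates the change of low genes, with Benjamini-Hochberg adjustment over all 18250 genes tested. *Mmp2* was lower in the 10 knockout tumors, by -0.85 against the control on the log2 scale (standard error 0.29, adjusted p = 0.0409), 1.80-fold, and an exact two-sided permutation test over all 3003 splits gave p = 0.018. In clone 4 alone the difference was -1.18 (adjusted p = 0.0104), 2.26-fold, and in clone 18 alone it was -0.51 (adjusted p = 0.225). The clones did not differ from each other past the threshold, at 0.67 (95% interval 0.04 to 1.29, adjusted p = 0.235). The joint call was lost when any 1 of tumors 2, 3, 4, 5, 7, 8, 9, 11 or 14 was left out, with an adjusted p of 0.14 and a difference of -0.64 without tumor 2, and of 0.0501 to 0.0702 without 1 of the others. The clone 4 call was kept with each tumor left out in turn (adjusted p 0.00114 to 0.0298).

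*Mmp9* (chromosome 2, 164940780 to 164955850), gelatinase B, is known for its release by neutrophils and macrophages. Its normalized count was 199.6, 164.7, 130.8, 229.7 and 164.9 in control tumors, 97.4, 182.5, 169.1, 143.4 and 2202.3 for clone 4, and 324.5, 1541.7, 456.8, 325.8 and 434.4 for clone 18. All clone 18 tumors were above each control tumor, whereas in clone 4 only tumor 10 was, and there by far. The log2 difference from the control was 1.52 in clone 18 (standard error 0.63, adjusted p = 0.088) and 0.51 in clone 4 (standard error 0.63, adjusted p = 0.654), so neither passed the threshold in limma. A test of each gene alone called the clone 18 difference (adjusted p = 0.0454), and the clone 4 difference was -0.28 without tumor 10. Tumor 10 of clone 4 enters the spread that the 3 groups share, and without it the clone 18 difference had an adjusted p of 0.00335 and the difference between the clones was 1.80 (adjusted p = 0.00708). Over all 10 knockout tumors the difference was 1.02 (95% interval -0.19 to 2.22, adjusted p = 0.23).

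Neutrophil markers moved with *Mmp9* in 1 of the 2 high tumors. Of the 12 listed, 9 were in the table, and their sum was 3523.4 in tumor 10 against 796.7 to 1132.3 in the other clone 4 tumors. It was 1008.5 to 2458.6 in the control and 935.8 to 1216.9 in clone 18, where tumor 12, with 1541.7 of *Mmp9*, had 1008.9. *Ly6g*, a defining neutrophil marker, was listed at 0 in all clone 18 tumors and was at most 2.3 elsewhere. The summed fibroblast markers were highest in tumor 10 (214951.7) and next in tumor 12 (152725.1). The part of these cells in the *Mmp9* values was not tested.

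**Figure D1:**
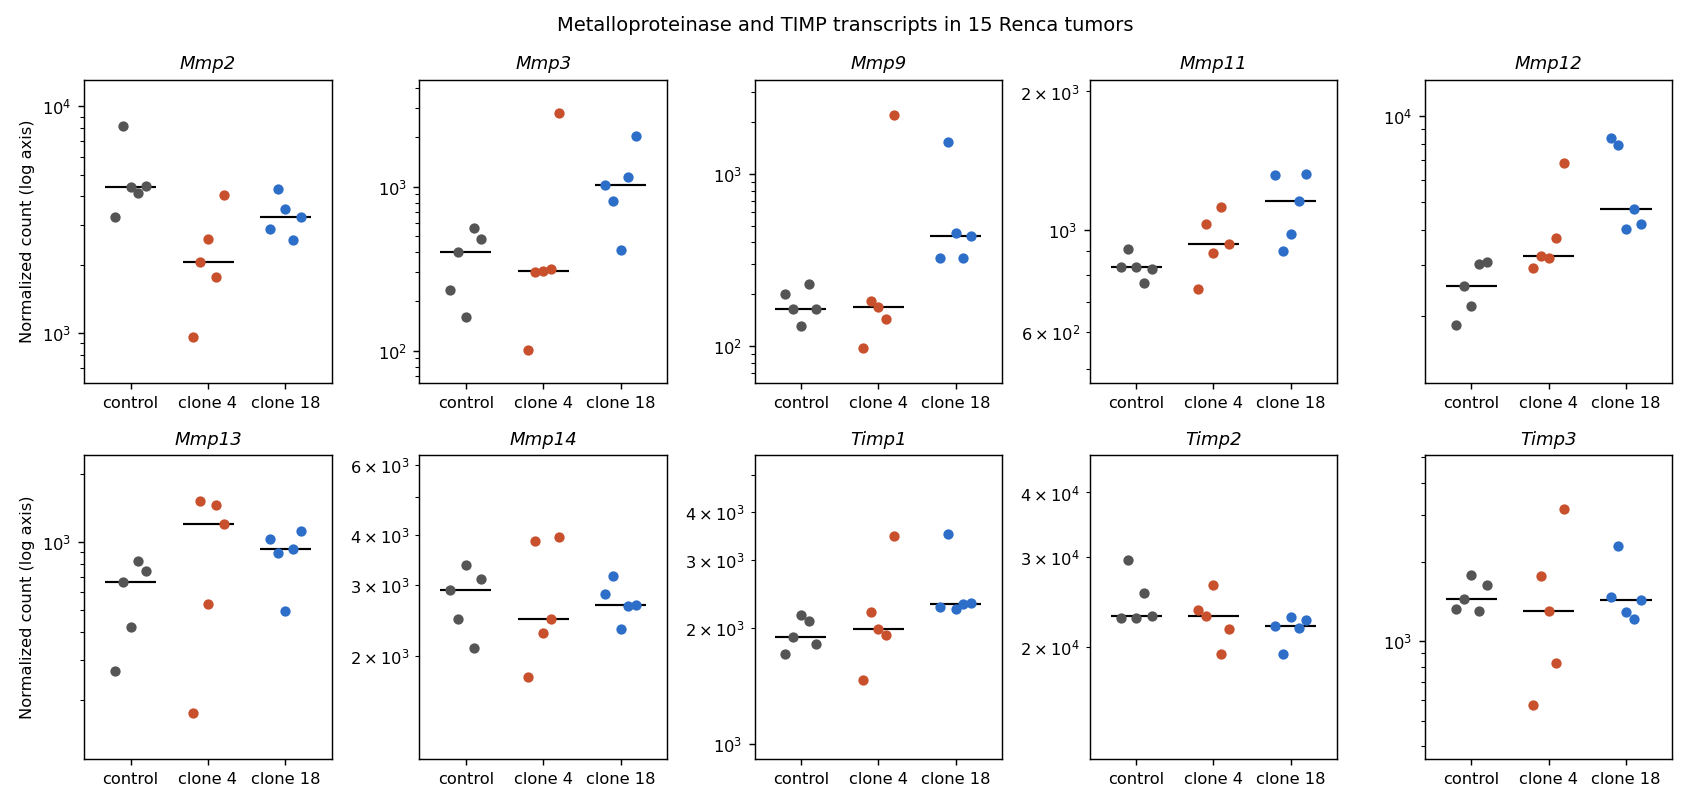
Normalized count (log axis, a scale of its own for each gene) of the 10 members in control (grey), clone 4 (orange) and clone 18 (blue) tumors, 1 point per tumor in tumor order, with a line at the median of 5. For *Mmp12*, 9 of the 10 knockout tumors lie above all control tumors, *Mmp2* lies lower in clone 4, and single tumors stand apart for *Mmp3* (2807.2) and *Mmp9* (2202.3) in clone 4.

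*Mmp12* (chromosome 9, 7344381 to 7369499), macrophage elastase, cuts elastin and is known as a product of activated macrophages. It was higher in knockout tumors than in control tumors. Its normalized count was 1858.0, 2533.9, 2165.3, 3040.0 and 3086.3 in control tumors, 2939.3, 3240.4, 3186.0, 3735.4 and 6879.8 for clone 4, and 8383.4, 7941.0, 4019.8, 4739.2 and 4180.3 for clone 18. Of the 10 knockout tumors, 9 were above each control tumor, and tumor 6 was the exception.

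The log2 difference of *Mmp12* was 0.88 for knockout against control (standard error 0.24, adjusted p = 0.012; exact permutation test, p = 0.00733), 1.84-fold. Clone 18 was above the control by 1.16 (adjusted p = 0.00225), 2.23-fold and without overlap. Clone 4 was above it by 0.61 (95% interval 0.09 to 1.12), with an adjusted p of 0.1. The joint call held without each tumor in turn (adjusted p 0.00669 to 0.0415). The clones differed by 0.55 (95% interval 0.04 to 1.06, adjusted p = 0.23), and by 0.77 (adjusted p = 0.0431) without tumor 10. *Mmp12* overlaps *Mmp1b* on the other strand, and since no source used here says whether reads were counted by strand, reads from the shared stretch cannot be assigned.

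The summed macrophage markers were not higher in the clones along with *Mmp12*. All 12 were measured, and their sum was 92992.2 to 120073.7 in the control, 75295.4 to 96700.3 in clone 4 and 68545.5 to 92831.9 in clone 18. In knockout against control, 1 of the 12 was called higher and 5 lower, where 22.1% of all genes were called. In clone 4 against the control 1 was higher and 3 lower (16.8% of all genes called), and in clone 18 2 were higher and 7 lower (24.7%). *Cd68*, a lysosomal protein of macrophages, was 10674.4 to 14233.8 in the control and 13739.3 to 18219.1 in clone 18, whereas *Csf1r*, the receptor on which macrophage survival depends, was 12607.0 to 21325.6 and 8018.7 to 9894.3. None of the macrophage markers was at 0 in all tumors of a group, and their part in the *Mmp12* values was not tested.

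Of the stromelysin genes among the members, *Mmp11* was higher in clone 18, and *Mmp3* did not pass the threshold. *Mmp3* (chromosome 9, 7445822 to 7455975), stromelysin 1, degrades proteoglycans, laminin and fibronectin and activates other proenzymes of the family. Its normalized count was 233.3, 401.6, 159.5, 560.3 and 481.1 in control tumors, 101.3, 300.1, 307.4, 315.2 and 2807.2 for clone 4, and 1022.5, 817.0, 409.7, 1145.7 and 2047.6 for clone 18. In clone 4, 4 tumors lay between 101.3 and 315.2 and tumor 10 held the highest value of all 15, while in clone 18 only tumor 13 lay within the control range. The log2 difference was 1.52 in clone 18 (95% interval 0.18 to 2.87, adjusted p = 0.0928) and 0.21 in clone 4 (95% interval -1.14 to 1.56, adjusted p = 0.877). Without tumor 10 the clone 18 difference had an adjusted p of 0.0132, as did the difference between the clones, then 2.03.

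*Mmp11* (chromosome 10, 75923222 to 75936496), stromelysin 3, is activated inside the cell by furin and is known as a transcript of tumor stroma. It was 829.8, 908.1, 830.9, 766.4 and 822.6 in control tumors, 744.5, 1033.0, 892.2, 1121.9 and 934.6 for clone 4, and 1316.4, 900.6, 981.7, 1155.7 and 1325.5 for clone 18. The control tumors were close together, with an SD of 50.5 around 832, and only tumor 12 of clone 18 lay inside their range. Clone 18 was higher by 0.43 on the log2 scale (standard error 0.12, adjusted p = 0.0122), 1.35-fold, and this held without each tumor in turn (adjusted p 0.00444 to 0.0367). The difference in clone 4 was 0.17 (95% interval -0.08 to 0.42, adjusted p = 0.366), and that of all knockout tumors was 0.30 (adjusted p = 0.065). The joint difference passed the threshold with edgeR (adjusted p = 0.0416), with DESeq2 (0.03), after quantile normalization (0.0399) and without tumor 6 (0.0174). *Chchd10* overlaps *Mmp11* on the other strand.

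*Mmp13* (chromosome 9, 7272514 to 7283331), the main interstitial collagenase of rodents, varied widely within groups. It was 266.9 to 824.7 in the control, 174.5 to 1509.8 in clone 4 and 496.1 to 1117.3 in clone 18. Within clone 4 the values split, with tumors 7, 9 and 10 above each control tumor and tumor 6 below each. The log2 difference of all knockout tumors was 0.58 (95% interval -0.28 to 1.44, adjusted p = 0.346).

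*Mmp14* (chromosome 14, 54431612 to 54445364), the membrane-type enzyme that cleaves fibrillar collagen at the cell surface and activates pro-MMP2, gave nearly the same mean in the 3 groups. These were 2793 ± 508 (SD, n = 5) for control, 2868 ± 987 for clone 4 and 2740 ± 301 for clone 18 tumors. The log2 difference was -0.01 in each clone (95% interval -0.41 to 0.38). The sign of the joint difference, -0.01, changed in 7 of the 15 fits with 1 tumor left out and in 3 other alternatives.

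The 3 inhibitor genes gave 0 calls in each of the 4 comparisons with limma, as with edgeR and DESeq2. Among all genes, limma called 22.1% in knockout against control, 16.8% in clone 4, 24.7% in clone 18 and 4.62% between the clones. With only 3 genes, 0 calls does not set the inhibitors apart from these shares. For 1 of them, *Timp1* in clone 18 against the control, the unadjusted p in limma was under 0.05. *Timp1* (chromosome X, 20870166 to 20874735), a secreted inhibitor that is induced by many cytokines, was 1709.4, 1896.3, 2169.9, 2083.1 and 1819.6 in control tumors, 1461.9, 2198.8, 1994.3, 1918.3 and 3463.3 for clone 4, and 2267.6, 3516.5, 2247.5, 2306.4 and 2329.7 for clone 18. All clone 18 tumors were above each control tumor, and 4 of them lay within a narrow range below tumor 12. The clone 18 difference was 0.37 on the log2 scale, 1.29-fold, with an adjusted p of 0.132 in limma and of 0.0409 without tumor 10 of clone 4. The exact permutation test of this gene alone gave p = 0.00794, the smallest that the 252 splits of 5 against 5 allow. In clone 4 the difference was 0.14 (95% interval -0.23 to 0.50, adjusted p = 0.667).

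*Timp2* (chromosome 11, 118301069 to 118355740), the inhibitor that also takes part in the activation of MMP2, had the smallest standard error of the 10 members in knockout against control (0.08 on the log2 scale). It was 22727.6 to 29523.6 in the control, 19390.2 to 26349.2 in clone 4 and 19357.8 to 22872.9 in clone 18. The knockout difference was -0.15 on the log2 scale (95% interval -0.31 to 0.01, adjusted p = 0.191). *Timp3* (chromosome 10, 86300372 to 86349506), the inhibitor that stays bound to the matrix and also blocks ADAM17, was 1304.3 to 1791.6 in the control, 572.8 to 3168.1 in clone 4 and 1216.9 to 2295.9 in clone 18. Its knockout difference was -0.10 (95% interval -0.69 to 0.48, adjusted p = 0.84), and its sign changed in 1 of the 15 fits with 1 tumor left out and in 2 other alternatives. *Syn1* overlaps *Timp1* and *Syn3* overlaps *Timp3*, both on the other strand, and *Cep295nl* overlaps *Timp2* on the same strand, so reads in the shared stretches are uncertain.

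Of the 10 members, 2 passed the threshold in knockout against control, 1 higher and 1 lower, a share close to that of all genes tested (22.1%). In clone 4 against the control 1 member passed (*Mmp2*, lower), against 16.8% of all genes, and in clone 18 against the control 2 did (*Mmp11* and *Mmp12*, both higher), against 24.7%. The last 2 comparisons share the control tumors. Between the clones, 0 members passed, against 4.62% of all genes; 3 had an unadjusted p under 0.05, and edgeR and DESeq2 on the recovered reads also called 0.

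The range of the knockout tumors overlapped that of the control for all 10 members, while 8.58% of 16494 genes (those averaging 10 or more) did not overlap. In clone 18 against the control 3 members did not overlap (*Mmp9*, *Mmp12* and *Timp1*), against 18.3% of these genes. None was without overlap in clone 4 against the control (15.0% of genes) or between the clones (6.02%). The median log2 difference of the members was 0.28 in knockout against control, beside -0.02 over all genes tested, and 6 of the 10 were positive.

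**Figure D2:**
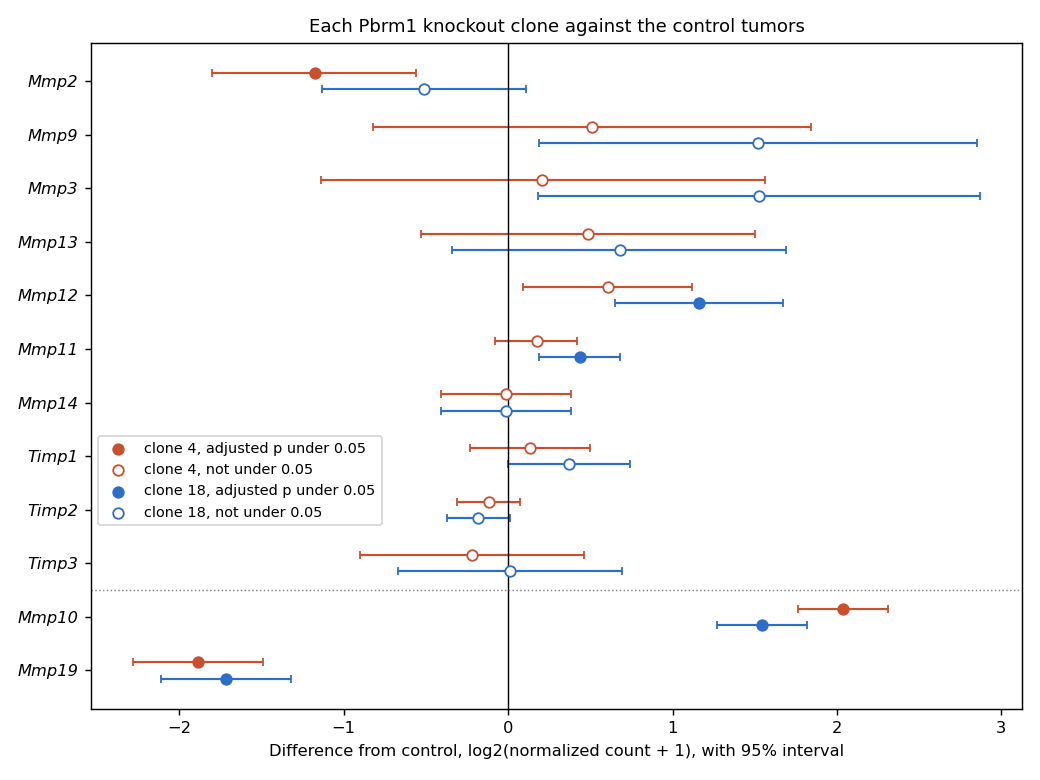
Difference of each clone from the control on the log2(normalized count + 1) scale, with 95% intervals from limma (5 tumors per group), for the 10 members and, under the dotted line, *Mmp10* and *Mmp19*. Filled points have an adjusted p under 0.05. Intervals are wide for *Mmp3*, *Mmp9* and *Mmp13* and narrow for *Timp2* and *Mmp11*, and the differences of *Mmp10* (2.04 and 1.54) and *Mmp19* (-1.89 and -1.72) exceed those of all members.

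Levels between genes were compared as normalized counts per kilobase of exon, averaged over the 15 tumors. The length of a gene was that of all its annotated exons joined, such as 7237 bases for *Mmp12*, 8144 for *Timp3* and 1801 for *Mmp3*. A long annotated length lowers the level. The annotation behind the counts is not given, so any order and ratio made this way depends on these lengths. The order was *Timp2* (5922), *Timp1* (2506), *Mmp2* (1036), *Mmp12* (571), *Mmp14* (470), *Mmp3* (411), *Mmp11* (350), *Mmp13* (306), *Timp3* (187) and *Mmp9* (128). The inhibitors *Timp2* and *Timp1* thus led, and *Timp2* was above *Timp1* in all 15 tumors without overlap of their ranges. The other neighbors in this order had overlapping ranges. *Mmp3* was above *Mmp11* in only 6 tumors although its mean was higher. The order over all tumors pools groups that differ, and by the control means alone *Mmp14* (469) stood above *Mmp12* (351), and *Mmp11* (299) and *Mmp13* (218) above *Mmp3* (204).

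Among the members, the balance of inhibitor and enzyme transcripts was most spread in clone 4. The summed level of the 3 TIMPs over that of the 7 metalloproteinases, both per kilobase, was 2.45 to 3.46 in the control, 1.70 to 5.53 in clone 4 and 2.07 to 2.97 in clone 18. The lowest and the highest ratio were in the same clone, in tumor 10 and tumor 6. The ratio of *Timp2* to *Mmp2* was 3.12 to 6.05 in the control and 3.88 to 7.33 in clone 18. In clone 4 it was 21.2, 9.69, 8.81 and 9.54 in tumors 6 to 9, all above these ranges, and 4.61 in tumor 10. The ratio of *Timp1* to *Mmp9* was 34.1 to 66.1 in the control and 9.09 to 28.2 in clone 18, without overlap, and in clone 4 it was 47.0 to 59.8 except for 6.27 in tumor 10. The summed ratio leaves out *Mmp10*, which is not a member. Its mean level per kilobase was 1831 in control, 7590 in clone 4 and 5397 in clone 18 tumors. The summed ratio thus does not give the balance over the whole family. All these ratios are of transcripts and were not tested.

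Tumors 6 and 10 of clone 4 stood at opposite ends for most members. Of the 10 members, 9 had their lowest clone 4 value in tumor 6 (all but *Timp2*), and 7 had their highest in tumor 10. For *Mmp3*, *Mmp9*, *Mmp14* and *Timp3*, tumor 10 was the highest of all 15. Fibroblast markers, 12 of 12 measured and none at 0, moved with these values: their sum was 33716.5 in tumor 6 and 214951.7 in tumor 10, with 56434.2 to 119276.0 in the other clone 4 tumors, 66142.4 to 104624.2 in the control and 85132.6 to 152725.1 in clone 18. *Dcn*, the matrix proteoglycan decorin, was 78.1 in tumor 6 and 2540.9 in tumor 10, and *Col1a1*, a chain of fibrillar collagen, was 3786.9 and 50416.7. *Lum*, the proteoglycan lumican, was lowest in tumor 6 (36.6) but in tumor 10, at 453.4, lay within the control range of 241.4 to 890.3. In tumor 10 the collagen genes *Col1a1* (50416.7) and *Col3a1* (73677.2) made up most of the sum. The part of these cells in the member values was not tested.

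Tumors 6 and 10 were left out together after their marker sums had been seen. Then 3 members passed in knockout against control (*Mmp2*, *Mmp11* and *Mmp12*), 5 in clone 18 against the control (*Mmp3*, *Mmp9*, *Mmp11*, *Mmp12* and *Timp1*) and 2 between the clones (*Mmp3* and *Mmp9*, both higher in clone 18). The share of all genes called in this fit is not given here, so the counts do not set the members apart from other genes. *Mmp2* was lower and *Mmp12* higher in the knockout tumors, as with all tumors.

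**Figure D3:**
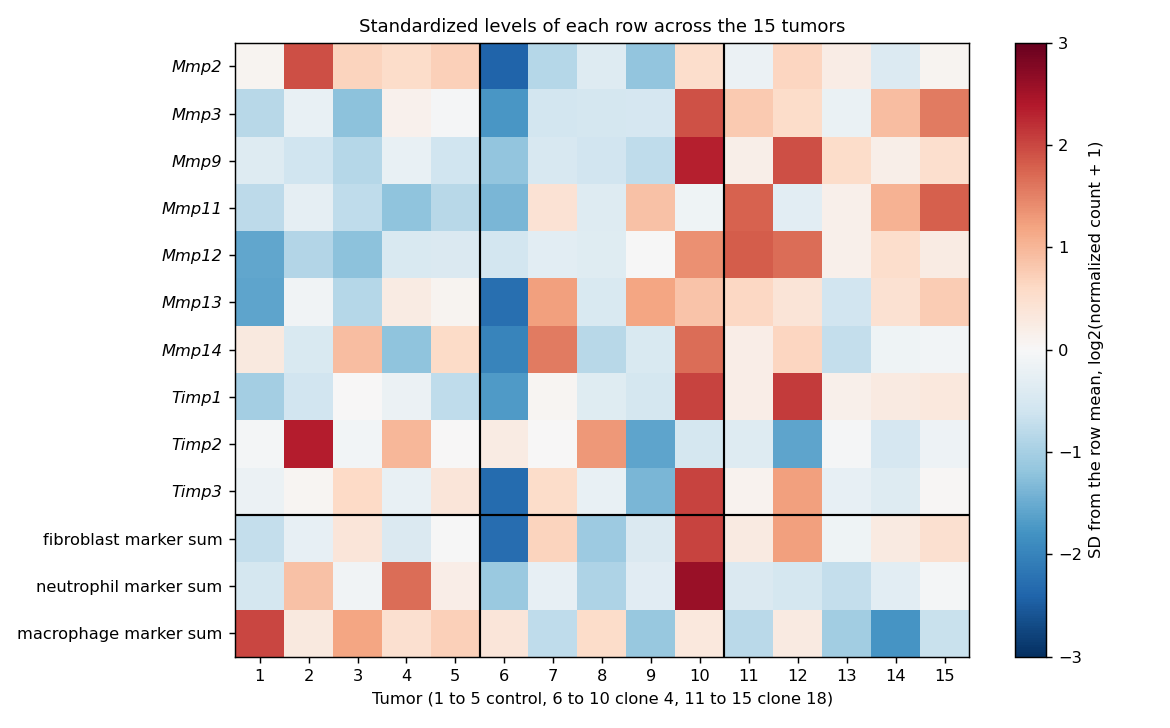
Standardized level (SD from the mean of each row over 15 tumors, on the log2 scale) of the 10 members and of the summed fibroblast, neutrophil and macrophage markers; columns are tumors, and lines separate control, clone 4 and clone 18. Tumor 6 is blue for most members and for the fibroblast sum (-2.29), tumor 10 is red for most members, for the fibroblast sum (2.04) and for the neutrophil sum (2.58), and *Timp2* follows another course.

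Among the other genes of the family, *Mmp10* and *Mmp19* differed by more than any member did. Of 17 listed, 11 were in the table and 10 had a mean of at least 10. *Mmp10* (chromosome 9, 7502352 to 7510240), stromelysin 2, an enzyme of epithelial and tumor cells with substrates like those of MMP3, was 3089.3, 2802.5, 3517.3, 3152.0 and 3202.6 in control tumors, 13472.5, 11175.5, 16035.3, 10145.7 and 14523.8 for clone 4, and 8121.1, 11542.3, 11001.9, 7854.5 and 7948.6 for clone 18. All knockout tumors lay far above the highest control tumor. It was higher by 1.79 on the log2 scale (standard error 0.15, adjusted p = 2.54e-07), 3.45-fold. Since the groups did not overlap, the exact permutation test gave the smallest p that the splits allow, 0.000333, which adds nothing to that separation. Clone 18 was below clone 4 by -0.49 on the log2 scale (adjusted p = 0.0374), a difference that 6 of the 15 fits with 1 tumor left out no longer called (adjusted p up to 0.0979). It was also not called after upper quartile scaling (adjusted p = 0.0512), after quantile normalization (0.0525), without the trend of limma (0.0805) or when each gene was tested alone (0.211).

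*Mmp19* (chromosome 10, 128790910 to 128800824), a metalloproteinase of basement membrane substrates, fell by as much. It was 1249.9, 1330.8, 1169.3, 1113.8 and 1199.0 in control tumors, 228.5, 343.1, 264.6, 298.1 and 599.3 for clone 4, and 362.3, 457.7, 383.5, 318.8 and 330.3 for clone 18. The groups did not overlap, and the clones did not differ past the threshold (0.17, 95% interval -0.23 to 0.57, adjusted p = 0.691). The knockout difference was -1.80 (standard error 0.16, adjusted p = 7.27e-07), 3.49-fold lower. *Mmp19* overlaps *Tmem198b* and *Gm47093* on the other strand. *Mmp28*, an epithelial enzyme known as epilysin, was lower in clone 4 by -0.30 (adjusted p = 0.0217) and did not pass over all knockout tumors (-0.22, adjusted p = 0.053). The remaining 7 genes with a mean of at least 10 gave 0 calls in the 4 comparisons with limma, edgeR and DESeq2. Among all genes, limma called 4.62% to 24.7% in these comparisons. The unadjusted p in limma was under 0.05 for *Mmp24* and *Mmp27* in clone 4 against the control and for *Mmp27* between the clones. The knockout differences of the 7 ran from -0.49 (*Mmp25*) over -0.43 (*Mmp24*), -0.07 (*Mmp17*), -0.02 (*Mmp15*), 0.11 (*Mmp27*) and 0.17 (*Mmp8*) to 0.18 (*Mmp23*).

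Within the cluster on chromosome 9, the nearest measured neighbors of *Mmp10* did not pass the threshold. In knockout against control *Mmp3* differed by 0.87 (adjusted p = 0.343) and *Mmp8* by 0.17 (adjusted p = 0.78), while *Mmp27* differed by 0.11 (95% interval -0.08 to 0.31). *Mmp10* was also the highest of the measured cluster genes per kilobase of exon in each group. In clone 4 (7590 ± 1399, SD, n = 5) it passed *Timp2* (5849 ± 655), and in clone 18 it was 5397 ± 1056 against 5574 ± 357. In the control its level was 1831 ± 149 against 6343 ± 753 for *Timp2*.

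**Figure D4:**
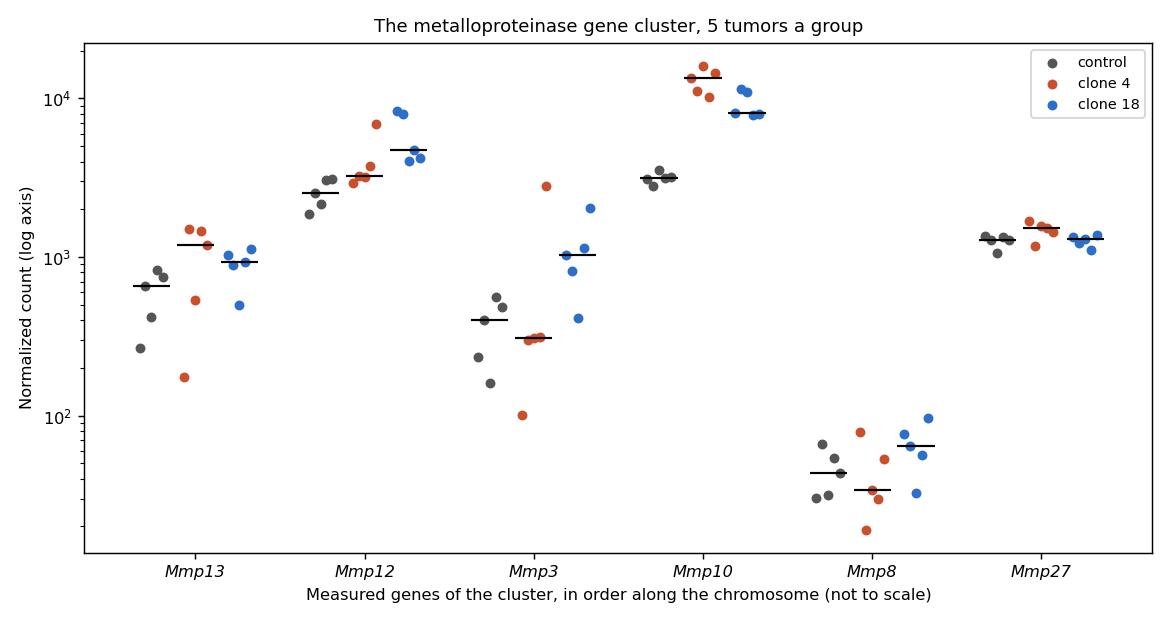
Normalized count (log axis) of the 6 measured genes of the chromosome 9 cluster, in chromosomal order and not to scale, with 1 point per tumor and a line at the median of 5 for control (grey), clone 4 (orange) and clone 18 (blue). *Mmp10* is separated from the control in both clones, *Mmp12* lies higher in clone 18, and *Mmp8* and *Mmp27* show overlapping groups.

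Genes that activate, bind or otherwise govern the enzymes were examined as a list of 28, of which 25 were in the table. In knockout against control 3 were higher and 2 lower, a share close to the 22.1% of all genes tested, with a median difference of -0.01. *Plau*, the urokinase that turns plasminogen into plasmin and so starts the cleavage of several proenzymes, was 9084.1 to 12090.5 in the control, 14906.2 to 21393.6 in clone 4 and 12959.5 to 18519.9 in clone 18, a log2 difference of 0.79 (adjusted p = 8.54e-05) without overlap. *Adam17*, the sheddase that TIMP3 blocks, was higher by 0.33 (adjusted p = 0.00412), and *Adamts4*, an aggrecanase, by 0.43 (adjusted p = 0.0365).

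The regulators that were lower were *Lcn2* and *Ctsk*. *Lcn2*, a lipocalin known to bind MMP9, was 954.2 to 2328.5 in the control, 353.9 to 569.5 in 4 clone 4 tumors, 1608.6 in tumor 10 and 379.9 to 471.5 in clone 18. Its log2 difference was -1.60 (adjusted p = 0.0008). Tumor 10 was above the other clone 4 tumors for *Lcn2* as for *Mmp9*. Its *Lcn2* value lay within the control range, whereas its *Mmp9* value was above each control tumor. *Ctsk*, the collagen-degrading cysteine protease cathepsin K, was lower by -0.86 (adjusted p = 0.0327), with -1.37 (adjusted p = 0.0002) in clone 18 and -0.35 (adjusted p = 0.301) in clone 4. The clones differed by -1.02 (adjusted p = 0.00922). The joint calls of *Ctsk* and *Adamts4* were lost in 8 and 7 of the 15 fits with 1 tumor left out, with adjusted p values up to 0.0874 and 0.124. That of *Ctsk* was also lost with edgeR (-0.70, adjusted p = 0.0775) and DESeq2 (-0.71, adjusted p = 0.0928), and both were lost without the trend of limma and when each gene was tested alone. *Adamts5*, another aggrecanase, named after its values were seen, was lower in clone 18 than in the control by -0.89 (adjusted p = 0.000117).

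Transcription factors and cytokines that are known to induce metalloproteinase genes were 20, all in the table. In knockout against control 2 passed, against 22.1% of all genes, and both were lower, *Ets2* by -0.56 (adjusted p = 0.00197) and *Osm*, the cytokine oncostatin M, by -0.94 (adjusted p = 0.0456). The call of *Osm* was lost in 12 of the 15 fits with 1 tumor left out (adjusted p up to 0.143). The 7 AP-1 genes of the list (*Fos*, *Fosb*, *Fosl1*, *Fosl2*, *Jun*, *Junb* and *Jund*) gave 0 calls in limma in knockout against control, where *Fos* and *Fosl1* had an unadjusted p under 0.05 and edgeR and DESeq2 also called 0. In clone 18 against the control limma called 0 of the 7, whereas edgeR and DESeq2 called *Fosl2*. In clone 18 against the control 5 were lower, beside 24.7% of all genes called, and they are named here after their values were seen: *Ets2*, *Etv5* (-0.94), *Sp1* (-0.25), *Il1a* (-1.33) and *Il1b* (-1.12). In clone 4, where 16.8% of all genes were called, *Ets2* was lower and *Etv4* higher, by 0.68 (adjusted p = 0.00141).

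Matrix substrates of the enzymes, 24 listed and 23 in the table, showed 1 call in knockout against control, where 22.1% of all genes were called. *Spp1*, osteopontin, a secreted matrix protein that MMP3 and MMP7 are known to cleave, was 57440.4 to 73083.4 in the control, 101350.9 to 130469.9 in clone 4 and 90415.7 to 100618.2 in clone 18. The log2 difference was 0.70 (adjusted p = 4.36e-05), without overlap. The other 22 substrates, collagens, laminins, fibronectin and proteoglycans among them, did not pass, none of them had an unadjusted p under 0.05, and the list's median was 0.13.

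For the members that passed the threshold, the genes with the most similar course were sought among 13297 genes with a mean of at least 50, by Pearson correlation over the 15 tumors after the mean of each group was taken off. For *Mmp2* these were *Ogn* (r = 0.879), *Crispld2* (0.876) and *Fn1* (0.874), which fell to 0.683, 0.711 and 0.659 without the 2 tumors farthest from the median of *Mmp2*. For *Mmp12* they were *Basp1* (0.913), *Pygl* (0.911) and *mt-Nd1* (0.876), with 0.870, 0.871 and 0.759 without 2 tumors. For *Mmp11* they were *Bmf* (0.899), *Il1a* (0.887) and *Setmar* (0.884), with 0.820, 0.793 and 0.829. The 15 points share library depth and tissue makeup, and each gene was picked as the highest of many, so these values describe these tumors only.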

How the data were processed

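RNA from 5 control tumors, 5 tumors of *Pbrm1* knockout clone 4 and 5 of clone 18 was sequenced. The deposited signal consists of read counts per gene that the authors made by aligning reads to mm10 with TopHat2, counting with HTSeq and dividing by DESeq size factors, rounded to 0.1; tool versions, annotation, strand setting and gene filter are not given in the sources used here. Columns without a sample: 0. Values were whole multiples of 1 step per tumor (0.881 to 1.31; 100.0% of values up to 8000 whole within 0.06), so reads were recovered. Reads carry no molecular identifiers, so depth covers counting error only. All 30 pairs of tumors within a group differed by more than sampling noise.

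Differences between 10 knockout and 5 control tumors, and among the 3 groups, were fitted with limma 3.58.1 (trend) on log2(normalized count + 1) for 18250 genes not at 0 in every tumor (29 were), at a Benjamini-Hochberg adjusted p of 0.05. The study tested each gene alone on log2 values; this is an alternative here. Others were pseudocounts of 0.1 and 5, a mean of at least 10, count tests of the recovered reads (DESeq2 1.42.0, edgeR 4.0.16), quantile normalization, upper quartile scaling, limma fitted with no trend, and each tumor left out. Fits were tested on simulated counts in which 200 genes changed alike in all knockout tumors and each gene had the same spread setting. Such counts lack single tumors that stand far apart, as for *Mmp3* and *Mmp9*, so that test does not cover them. Permutation tests were exact and two-sided.

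The members and gene lists were chosen with earlier results of these data known. Named beside the members were up to 5 genes of each list with the largest difference past the threshold, family genes with a mean of at least 10, and the 3 genes most like each called member. Marker lists covered neutrophils, macrophages, fibroblasts, endothelial cells, T cells, renal epithelium, keratinocytes and skeletal muscle. Summed endothelial markers were 7756.8 to 16207.1 and T cell markers 566.2 to 2027.3 over all tumors. GENCODE M21 gave gene positions on GRCm38, and RefSeq on GRCm38.p6 gave promoters. Software was Python 3.11.15 with matplotlib 3.10.9, scipy 1.17.1, pandas 2.3.3 and numpy 2.4.6, and R 4.3.3.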

Additional observations from a re-analysis of the deposited data

Results flagged for a closer look

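In groups of 5 tumors, a highest or lowest value was marked when its gap to the nearest tumor exceeded Dixon's critical share of the group's range. This held for 17 of 111 groups examined. The critical share would mark about 1 in 20 (5.5) if values were normal and groups independent. Here the groups share tumors and the values are counts without a log scale, so no excess is read from these numbers. In clone 4, tumor 10 stood apart for *Mmp3* (2807.2, others 101.3 to 315.2), *Mmp9* (2202.3, others 97.4 to 182.5), *Mmp12* (6879.8, others 2939.3 to 3735.4), *Mmp25* (110.3, others 47.7 to 50.1), *Lcn2* (1608.6), *Osm* (242.8, others 57.9 to 78.5), *Ets2* (4284.3, others 2766.6 to 3071.2) and the summed neutrophil markers (3523.4). Within clone 4, the same tumor was thus high for these metalloproteinase genes, for the inducers *Osm* and *Ets2* and for neutrophil markers. Its values of *Mmp25*, *Lcn2*, *Osm* and *Ets2* lay within the control ranges (52.0 to 184.5, 954.2 to 2328.5, 98.6 to 282.4 and 3508.2 to 5842.0). The inducers *Etv4* (1450.4) and *Etv5* (1419.2) lay inside the range of the other clone 4 tumors. The part of neutrophils was not tested.

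In clone 18, tumor 12 stood apart for *Mmp9* (1541.7, others 324.5 to 456.8), *Timp1* (3516.5, others 2247.5 to 2329.7) and *Timp3* (2295.9, others 1216.9 to 1476.7). Single low values were those of *Mmp25* in tumor 13 (26.2, others 63.8 to 75.2), *Lcn2* in tumor 14 (379.9, others 457.9 to 471.5) and *Sp1* in tumor 9 of clone 4 (5198.6, others 6021.1 to 6215.8). In the control, *Mmp2* was high in tumor 2 (8184.8, others 3262.2 to 4450.3), *Plau* in tumor 4 (12090.5, others 9084.1 to 9887.6) and *Il1a* in tumor 5 (180.8, others 116.8 to 125.9).

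The effects of the clones, each against the same control tumors, differed in limma for 6 genes of the lists. Clone 18 was below clone 4 by a log2 difference of -0.49 for *Mmp10* (adjusted p = 0.0374, lost in 10 alternatives), which was higher than the control in both, and by -1.02 for *Ctsk* (adjusted p = 0.00922). The other differences were -0.89 for *Adamts5* (adjusted p = 0.000426), -0.63 for *Etv4* (adjusted p = 0.00786), -0.83 for *Etv5* (adjusted p = 8.63e-05) and -1.06 for *Il1b* (adjusted p = 0.00621).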

How the results depend on the processing

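With limma without trend, and likewise with a test of each gene alone, 1 member (*Mmp12*), 3 regulators and 1 inducer passed in knockout against control, and with DESeq2 4 members did (*Mmp2*, *Mmp9*, *Mmp11* and *Mmp12*). A test of each gene alone called 0 members in clone 4 against the control, and 3 in clone 18 against the control (*Mmp9* beside *Mmp11* and *Mmp12*). Upper quartile scaling and edgeR each left 1 inducer. Without tumors 6 and 10, chosen after seeing the data, 5 members passed in clone 18 against the control and 2 between the clones. With 1 tumor left out, the number of members that passed was 1 to 3 in knockout against control, 1 in clone 4, 2 to 5 in clone 18 and 0 to 3 between the clones; 2 to 3 of the remaining family, 3 to 7 regulators, 1 to 7 inducers and 1 substrate passed. The share of all genes called under each alternative is not given here, and the cause of these changes was not tested. Of the values of single genes under an alternative, 1496 kept their side of the threshold, 59 lost it, 21 gained it, and 0 called values changed sign. *Mmp12*, *Mmp10*, *Mmp19*, *Plau*, *Spp1*, *Lcn2*, *Adam17* and *Ets2* kept their calls in knockout against control under all alternatives run. DESeq2 gave no adjusted p for *Mmp9* in the comparisons of single clones. No paired analysis was possible because the labels give no number that joins a knockout tumor to a control tumor. Where an arm keeps 4 tumors, the spread is shared with the other groups. Tumors of 1 line per group limit what these p values cover to the spread between tumors.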
